A study of Mus musculus with 6 samples.

Results

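The 50 genes described here are the WNT ligands, receptors and modulators among the 24532 genes of a mouse kidney and ureter RNA-seq table. They were chosen by gene symbol alone: 19 Wnt ligands, 10 Frizzled receptors (Fzd), the co-receptors Lrp5 and Lrp6, 4 R-spondins (Rspo), 3 LGR receptors (Lgr4 to Lgr6), 4 secreted Frizzled-related proteins (Sfrp), 4 Dickkopf proteins (Dkk), Axin1, Axin2, and the transcription factors Lef1 and Tcf7. The symbol rule takes Sfrp1, Sfrp2, Sfrp4 and Sfrp5. The remaining relative of that family, Frzb, has another symbol and was counted among the other WNT pathway genes. RNA came from kidneys and ureters of mice at postnatal day 1 (PN1). There were 2 WT kidney libraries, 2 Ahnak KO kidney libraries, 1 WT ureter library and 1 Ahnak KO ureter library. Ahnak codes for a large scaffold protein, and in the KO its exon 5 is disrupted in the germ line, not in a chosen tissue. The methods state that more than 1 kidney or ureter was collected for RNA, so a library may be a pool of organs. No other allele and no agent is given for any group, WT included. The study compared Ahnak KO with WT mice to ask what Ahnak does in these organs. The same table also lets kidney be set beside ureter. The methods call the replicates biological, and the labels do not say which animals gave which library. In the table's column names, each ureter shares its numbers with kidney 2 of its genotype. What these numbers stand for is not given, and no fit paired a ureter with a kidney.

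WNT proteins are secreted lipid-modified ligands that bind Frizzled receptors. When Frizzled is joined by Lrp5 or Lrp6, the complex that degrades beta-catenin, built on Axin1 and Axin2, is inhibited, and beta-catenin enters the nucleus and works with TCF/LEF factors such as Lef1 and Tcf7. Axin2, Lef1, Tcf7, Lgr5 and Dkk1 are themselves widely used target genes of this branch. R-spondins, bound by LGR receptors, keep Frizzled at the cell surface and so strengthen the signal, SFRP proteins bind WNT ligands outside the cell, and Dkk1 blocks Lrp5 and Lrp6. In the developing kidney, Wnt9b from the ureteric epithelium induces nephrons, Wnt4 carries the step from mesenchyme to epithelium, Wnt11 marks the ureteric tips, and Wnt7b acts in the collecting duct. In the ureter, Wnt7b and Wnt9b from the epithelium are known to act on the mesenchyme that forms smooth muscle.

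The promoters of 3 beta-catenin or WNT genes that were lower in ureter are shown as examples of an inhibitor, a ligand and a feedback target gene. Each is the 250 bases before the RefSeq start on GRCm38.p6, written 5′ to 3′ on the gene's strand. Capitals mark matches on either strand to a TCF/LEF core, CTTTG followed by AA, AT, TA or TT. These are Dkk1 at chr19:30549497-30549746 on the minus strand, Wnt11 at chr7:98834862-98835111 on the plus strand, and Axin2 at chr11:108920099-108920348 on the plus strand.
Dkk1: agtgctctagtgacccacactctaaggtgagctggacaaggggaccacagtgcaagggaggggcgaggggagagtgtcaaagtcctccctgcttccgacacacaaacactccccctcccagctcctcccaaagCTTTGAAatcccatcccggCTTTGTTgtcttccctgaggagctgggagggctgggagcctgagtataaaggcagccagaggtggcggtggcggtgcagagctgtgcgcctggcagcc
Wnt11: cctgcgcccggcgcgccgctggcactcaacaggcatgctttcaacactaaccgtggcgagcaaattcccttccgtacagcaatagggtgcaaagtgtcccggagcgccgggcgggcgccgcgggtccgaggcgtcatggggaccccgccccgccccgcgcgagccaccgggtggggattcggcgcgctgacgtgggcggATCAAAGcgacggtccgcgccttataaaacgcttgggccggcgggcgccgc
Axin2: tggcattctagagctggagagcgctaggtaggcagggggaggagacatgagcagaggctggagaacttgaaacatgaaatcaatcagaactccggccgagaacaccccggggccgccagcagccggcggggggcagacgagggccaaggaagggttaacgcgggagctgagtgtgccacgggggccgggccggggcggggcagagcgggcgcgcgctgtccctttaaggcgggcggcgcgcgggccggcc
The Dkk1 window held 2 matches, starting at -117 and -98 from the start site, the Wnt11 window shown held 1 at -51, and the Axin2 window held none. A second Wnt11 promoter, at chr7:98838595-98838844 and not shown, held 0. Of the 50 genes, 32 had at least 1 promoter in the RefSeq table. Of their 39 promoters, 5 held a match (12.8%), beside 14.8% of all 32851 promoters of the same length. A match is a description of the sequence and not a binding site.

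Library totals ran from 36410246 to 66095616 counts. Ahnak, the disrupted gene, was at 27.7 and 24.7 TPM (the authors' level, corrected for transcript length and depth) in the WT kidneys and at 20.6 and 22.1 TPM in the Ahnak KO kidneys. It was at 77.5 TPM in the WT ureter and 88.0 TPM in the Ahnak KO ureter. In TMM-scaled CPM (counts scaled to library size) it was lower in Ahnak KO in both organs, at 183 and 189 against 139 and 130 in kidney and at 727 against 635 in ureter, so the order in ureter depends on the unit. The table counts whole genes, so these levels do not check the disrupted exon itself. The tissue labels were checked against markers. All 13 nephron and collecting duct genes were lower in ureter, 6 of them at 0 there (Slc34a1, Nphs1, Umod, Slc12a1, Slc12a3 and Aqp2), with summed levels of 1418 to 1588 TPM in kidney and 16.4 to 20.5 TPM in ureter. All 7 urothelial and all 8 smooth muscle genes were higher in ureter. Of 8 striated muscle genes 7 were higher in ureter, at 542 TPM summed in WT and 203 TPM in Ahnak KO, beside 18.6 to 19.8 TPM in kidney. Adrenal genes summed to 2.20 and 3.89 TPM in ureter against 1.34 to 1.82 TPM in kidney, and 4 of 6 were at 0 in both ureters. Nerve genes summed to 14.2 to 18.4 TPM against 7.30 to 9.48 TPM. Gonad genes were below 1.64 TPM in every library, and summed blood and fat genes overlapped between the tissues. Whether other tissue came with the ureters was not tested, nor was its part in the differences below.

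Among the kidney libraries, Ahnak KO kidney 1 stood apart. It had 176348 counts of Xist, beside 21 to 26 in the other 3, and more genes at 0. Among genes that averaged 5 to 60 counts in the other kidneys, 29.9% were at 0 in this library, beside 4.97% to 9.64% in the others. Wnt10a, Wnt10b, Wnt7a and Sfrp5 were 4 of the 8 WNT genes in that range and were all at 0 in this library. A 0 is the table's entry for an estimated count. Of the low genes, Wnt10b alone lost its call between the organs without this library. Wnt2, Sfrp4, Rspo2 and Wnt2b stayed called, at log2 fold changes of 4.93, 4.99, 6.25 and 2.31, and Lgr6, Wnt16 and Fzd9 stayed uncalled, at 1.46, -3.69 and 1.36. The Ahnak KO ureter had the lowest total, and Rn45s, a ribosomal RNA precursor, took 8.06% of its counts, beside 0.496% to 0.632% elsewhere.

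At PN1, the leading members of several WNT families differed between kidney and ureter. Sfrp1, Lgr4, Sfrp2, Wnt4, Fzd1 and Rspo1 had the highest mean levels in kidney, and Sfrp2, Dkk3, Sfrp1, Dkk2, Fzd1 and Wnt7b had the highest in ureter. In kidney, Sfrp1 was at 116 ± 11.1 TPM (SD, n = 4 libraries of both genotypes) and Lgr4 at 101 ± 14.3 TPM, with overlapping ranges. Both lay above Sfrp2 at 59.8 ± 4.38 TPM and Wnt4 at 59.7 ± 2.30 TPM. Sfrp2, Wnt4, Fzd1 (54.8 ± 5.97 TPM) and Rspo1 (50.7 ± 8.83 TPM) overlapped with their neighbours in that order. In ureter, Sfrp2 stood alone at 216 TPM in WT and 118 TPM in Ahnak KO. The next genes in order, Dkk3, Sfrp1, Dkk2, Fzd1 and Wnt7b, had mean levels of 51.7, 49.3, 44.7, 43.0 and 39.4 TPM, and Dkk2 alone spanned 30.9 to 58.5 TPM, so they are not ranked.

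**Figure D1:**
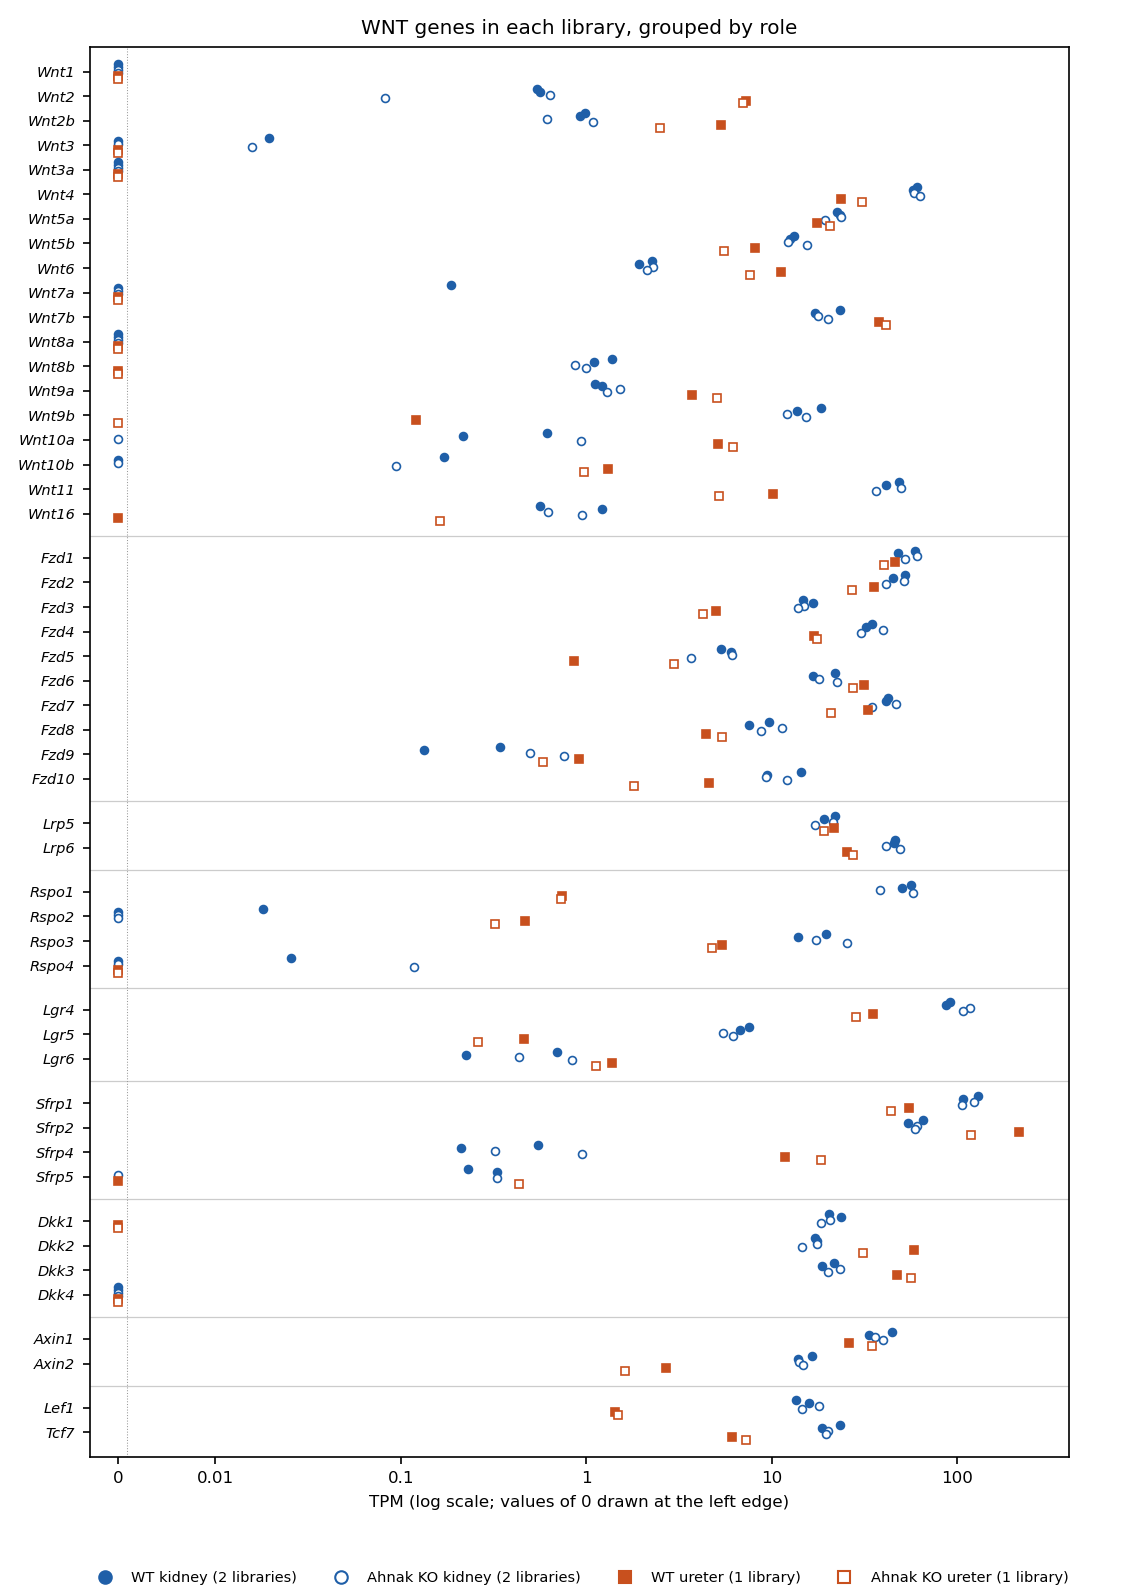
Levels of all 50 WNT genes in TPM on a log axis, 1 symbol per library, with values of 0 drawn at the left edge and small vertical offsets for legibility. Circles are the 4 kidney libraries and squares the 2 ureter libraries, filled for WT and open for Ahnak KO. Dkk1 and Wnt8b sit at 0 in both ureters, whereas Sfrp4, Wnt2 and Wnt10a lie higher in ureter than in every kidney.

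When the members of a family were summed, R-spondins had the widest gap of the groups by the ratio of their totals. Their total was 55.6 to 83.3 TPM in the 4 kidneys and 6.58 and 5.79 TPM in the WT and Ahnak KO ureter. The Dickkopf total went the other way, at 53.1 to 61.2 TPM in kidney and 106 and 87.2 TPM in ureter. Wnt ligands summed to 173 to 194 TPM in kidney and 131 and 132 TPM in ureter, and the 4 SFRP genes to 162 to 194 TPM in kidney and 283 and 181 TPM in ureter, where the ranges overlap. Lef1 and Tcf7 together were at 33.9 to 38.1 TPM in kidney and 7.50 and 8.69 TPM in ureter. The LGR total was 93.4 to 123 TPM against 37.0 and 29.6 TPM, and the Frizzled total 219 to 259 TPM against 178 and 148 TPM. Summed TPM depends on all other genes in a library, and the median gene was itself lower in ureter by this scale, with a log2 fold change of -0.36 on log2(TPM + 1). The tests that follow use counts and TMM scaling, which puts that median at -0.08. Without TMM the median was shifted by -0.29. In bulk tissue, fewer cells of a type and less RNA per cell cannot be told apart.

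**Figure D2:**
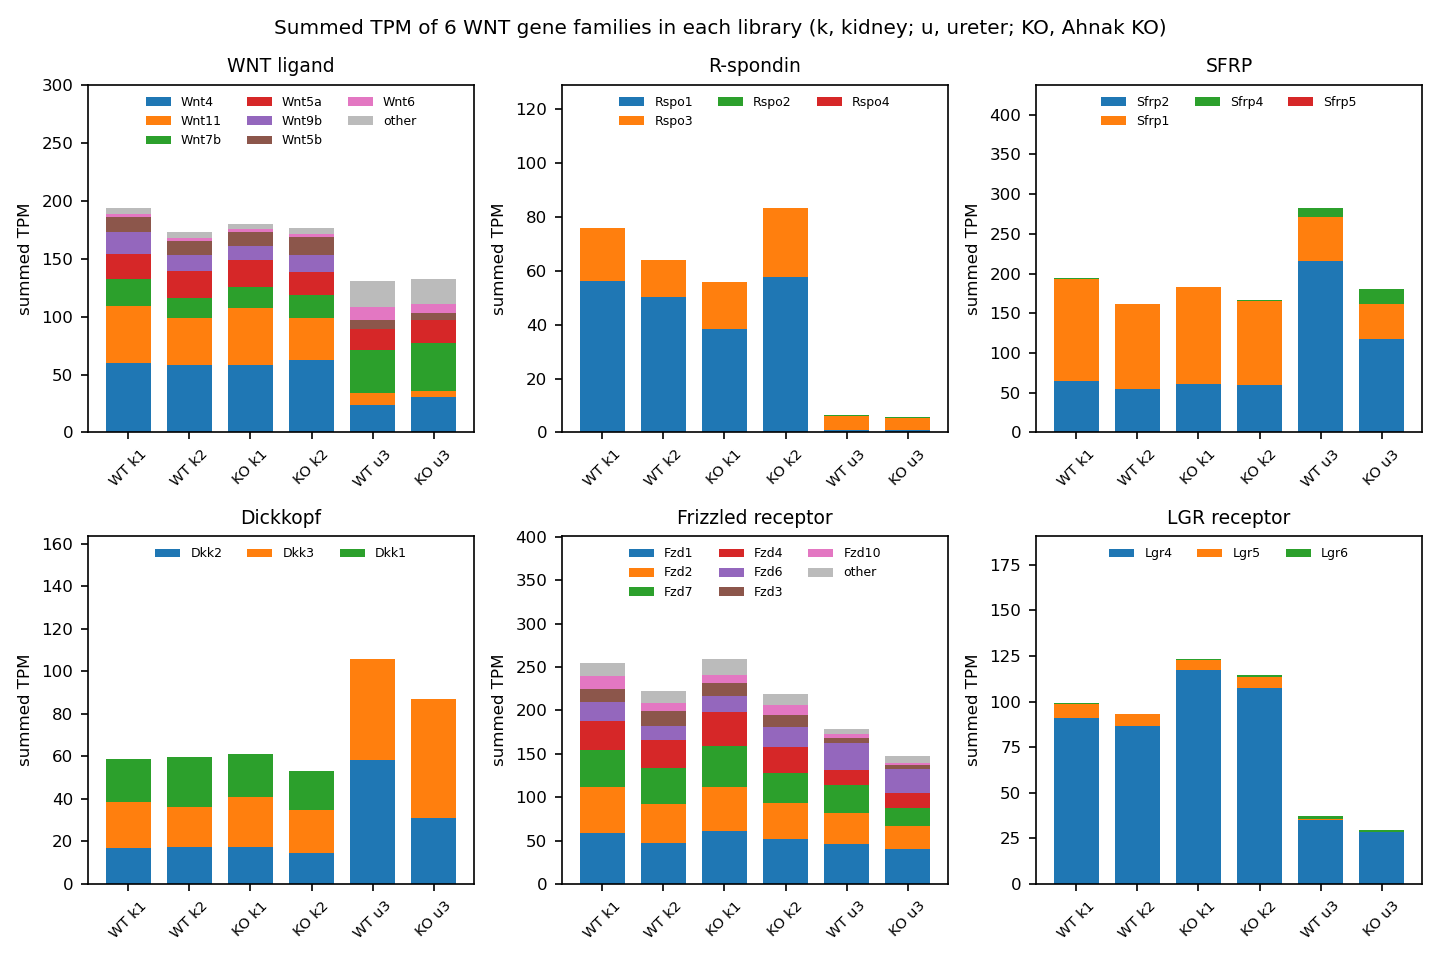
Stacked bars of TPM in each of the 6 libraries for 6 WNT gene families, with each member in its own colour and, in the Wnt and Frizzled panels, the lowest members pooled in grey. R-spondin bars drop from 55.6 to 83.3 TPM in kidney to 6.58 and 5.79 TPM in ureter, and the Dickkopf bars change composition, with Dkk1 present in kidney only.

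Ureter was compared with kidney in a fit over all 6 libraries with genotype as a term. Of the 50 genes, 43 passed the filter on low counts, and 31 of these differed at an adjusted p under 0.05: 14 were higher in ureter (32.6%) and 17 were lower (39.5%). Over all 16873 genes tested, 21.4% were higher and 23.7% lower, 45% in all, beside 72.1% of the WNT genes. Their median log2 fold change was -0.26, beside -0.08 for all genes. Kidney and ureter libraries did not overlap, in TMM-scaled CPM, for 35 of the 43 genes (16 higher and 19 lower in ureter), beside 28.1% higher, 32.8% lower and 61% in all over the genes tested. Of the 31 genes called, 24 kept their direction and their call under every alternative that could be run for them, 17 for 20 of these genes and 16 for Dkk1, Wnt2, Wnt8b and Wnt9b, which the filter of at least 10 counts in every library removes. None of the 31 changed direction under those run. The other 7 lost the call when 1 library was left out: Fzd4 without the WT ureter (adjusted p = 0.0718), Fzd10 without the Ahnak KO ureter (0.067), Rspo2 without either ureter (0.0605 and 0.0785), Lrp5, Lrp6 and Wnt10a without either ureter or 1 of 2 or 3 kidneys, and Wnt10b whichever library was left out (adjusted p from 0.0503 to 0.175). There is 1 ureter library per genotype, so the spread within ureter is also the spread between genotypes.

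**Figure D3:**
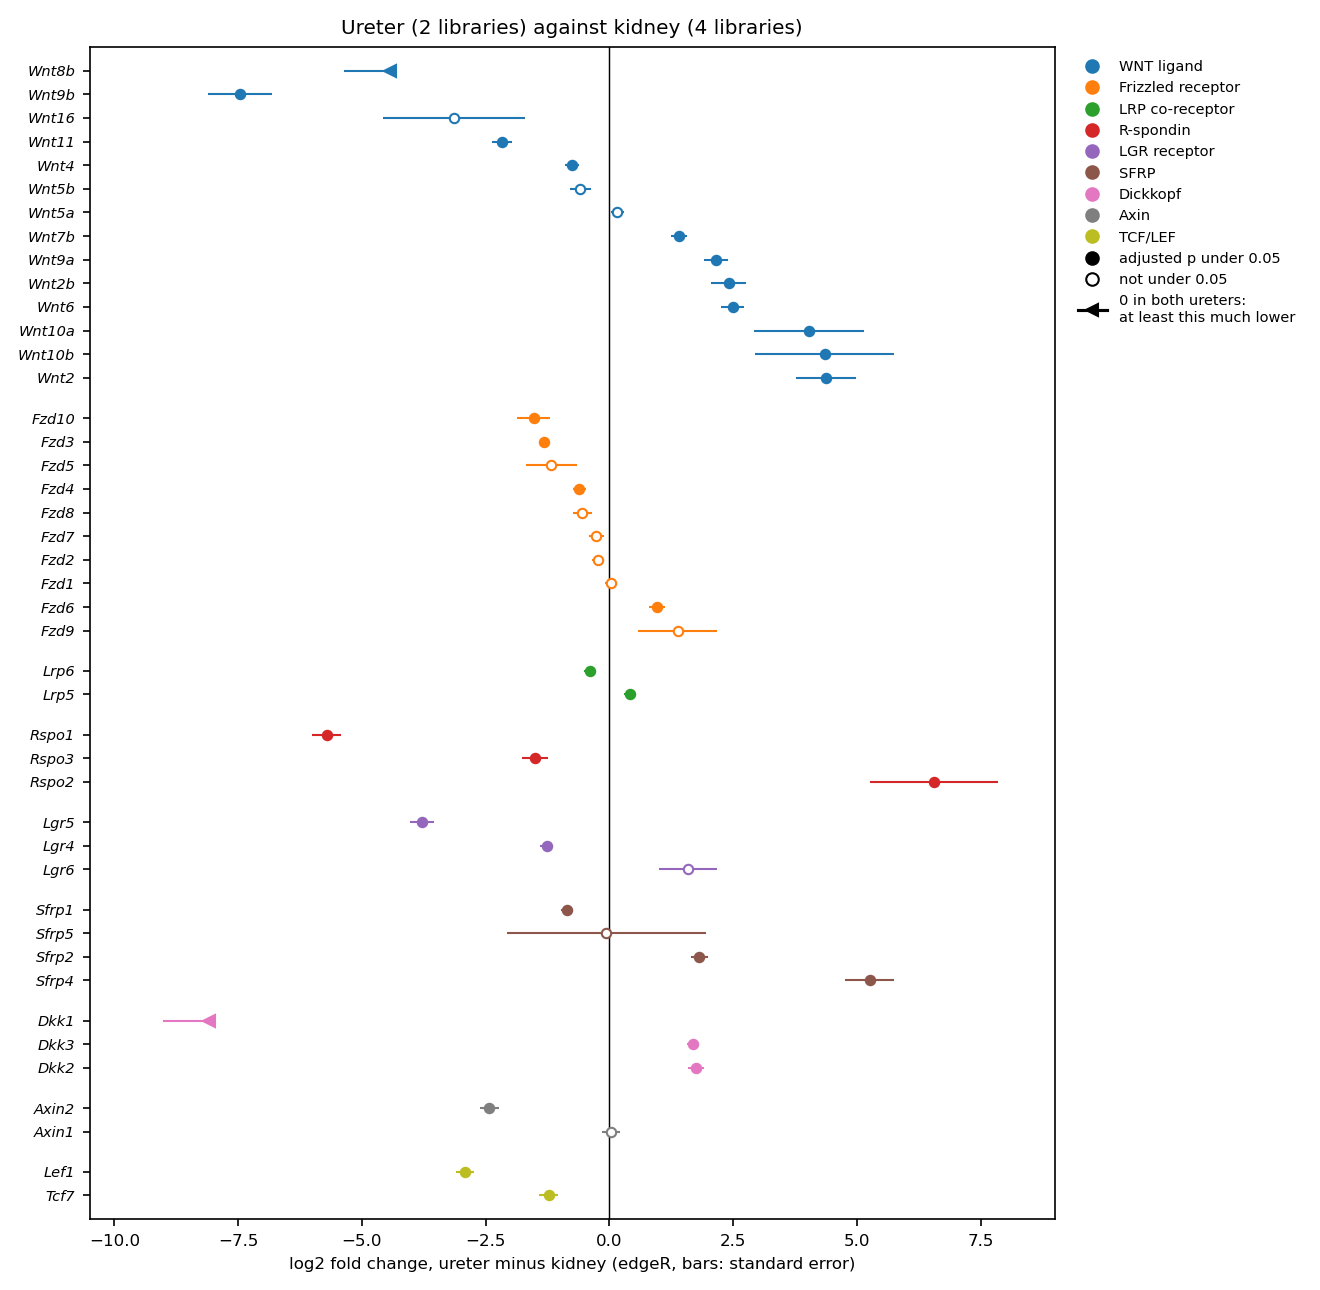
Log2 fold change of ureter minus kidney for the 43 WNT genes tested, grouped by role, with edgeR estimates and standard errors. Filled symbols passed an adjusted p under 0.05, open symbols did not, and arrowheads mark the lower bounds for Dkk1 and Wnt8b, which were at 0 in both ureters. Ligands spread to both sides, while both R-spondins of kidney, Lgr4, Lgr5, Axin2, Lef1 and Tcf7 lie on the kidney side.

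The Wnt ligands went both ways, with 7 of the 14 tested higher in ureter (50%), 4 lower (28.6%) and 3 not called. Over all genes tested 21.4% were higher and 23.7% lower, so the share of ligands lower was near that of all genes. Wnt9b, the inducer of nephron formation, was at 18.3 and 13.6 TPM in WT kidneys and 12 and 15.2 TPM in Ahnak KO kidneys. It was at 0.120 TPM in the WT ureter (16 counts) and 0 in the Ahnak KO ureter. Its fitted log2 fold change in ureter was -7.47 (SE 0.652, adjusted p = 0.000281), a value that rests on those 16 counts: it was -13.69 without the WT ureter and -6.74 without the Ahnak KO ureter. The gene spans chr11:103727362-103775272 on GRCm38. Wnt11, the ligand of the ureteric tips, was at 48.6, 41.3, 49.7 and 36.2 TPM in WT kidney 1 and 2 and Ahnak KO kidney 1 and 2, and at 10.1 and 5.20 TPM in the WT and Ahnak KO ureter (log2 fold change -2.17, SE 0.202, adjusted p = 0.000375). Every kidney library lay well above both ureters. Wnt4, which drives the mesenchyme into epithelium, was at 60.4, 57.8, 58.0 and 62.7 TPM in kidney and remained at 23.7 and 30.5 TPM in ureter (log2 fold change -0.76, SE 0.140, adjusted p = 0.00609). Wnt8b, a ligand best known from the brain, was low in kidney, at 1.38 and 1.10 TPM in WT and 0.868 and 1.0 TPM in Ahnak KO, and at 0 in both ureters. Taking 3 counts per library as the limit of a 0, it was at least 21.7-fold lower in ureter.

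The 7 ligands higher in ureter were Wnt2, Wnt10b, Wnt10a, Wnt6, Wnt2b, Wnt9a and Wnt7b. Wnt7b, an epithelial ligand of both organs, was the most abundant of them, at 23.2, 17.1, 17.6 and 19.96 TPM in WT kidney 1 and 2 and Ahnak KO kidney 1 and 2, and 37.6 and 41.2 TPM in the WT and Ahnak KO ureter (log2 fold change 1.40, SE 0.165, adjusted p = 0.000954). It made up 28.7% to 31.2% of all Wnt ligand TPM in ureter and 9.82% to 11.97% in kidney. Wnt2, a ligand of mesenchyme in several organs, was at 0.544, 0.562, 0.639 and 0.0825 TPM in kidney and 7.27 and 6.99 TPM in ureter (log2 fold change 4.37, SE 0.605, adjusted p = 0.00188). Its relative Wnt2b was at 0.977, 0.924, 0.610 and 1.09 TPM in kidney and 5.33 and 2.49 TPM in ureter (log2 fold change 2.41, SE 0.353, adjusted p = 0.0024). Wnt6 was at 2.26, 1.93, 2.27 and 2.11 TPM in kidney and 11.2 and 7.58 TPM in ureter, a log2 fold change of 2.49. Wnt9a, the relative of Wnt9b, went the opposite way to it: 1.11, 1.21, 1.51 and 1.3 TPM in kidney and 3.72 and 5.03 TPM in ureter, a log2 fold change of 2.15. None of these ligands overlapped between the tissues.

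Wnt10a and Wnt10b, which are often expressed in epithelia, were at or near 0 in kidney. Wnt10a had 40, 12, 0 and 53 counts in WT kidney 1 and 2 and Ahnak KO kidney 1 and 2, and 298 and 237 in the WT and Ahnak KO ureter (log2 fold change 4.04, adjusted p = 0.0267). Wnt10b had 13, 0, 0 and 7 counts in kidney and 86 and 43 in ureter (log2 fold change 4.35, adjusted p = 0.0449). Both were at 0 in Ahnak KO kidney 1. Without that library Wnt10b stood at 3.91 with an adjusted p of 0.0503, while Wnt10a kept its call. Without WT kidney 1 or WT kidney 2 the adjusted p of Wnt10a was 0.0547 and 0.0826. Wnt5a and Wnt5b, which mostly act outside the beta-catenin branch, were not called by the main test: Wnt5a was at 19.3 to 23.5 TPM in kidney and 17.6 and 20.4 TPM in ureter, and Wnt5b at 12.2 to 15.5 TPM in kidney and 8.08 and 5.50 TPM in ureter. Wnt5b was called lower under 8 alternatives, among them DESeq2 (adjusted p = 0.0323), library size alone (0.022), log2(TPM + 1) (0.00893) and the fit without the WT ureter (0.0449). Wnt16 was at 0.564 to 1.21 TPM in kidney and 0 and 0.163 TPM in ureter, with an adjusted p of 0.122, and was called lower by DESeq2 (0.0337) and without the Ahnak KO ureter (0.0277).

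The remaining 5 ligands were close to absent. Wnt1, Wnt3a and Wnt8a were at 0 in every library, as was Dkk4. Wnt3 had 3 and 2 counts, in WT kidney 1 and Ahnak KO kidney 2, and Wnt7a had 20 counts in WT kidney 1, with 0 in all other libraries for both. Several Wnt genes lie in pairs in the genome. Wnt6 (chr1:74754342-74785322) and Wnt10a (chr1:74792019-74804176) are neighbours and were both higher in ureter. Wnt9b neighbours Wnt3 (chr11:103774175-103818021), which was nearly silent, while Wnt9a (chr11:59306849-59333552) neighbours Wnt3a (chr11:59248036-59290751) and Wnt10b (chr15:98770712-98778206) neighbours Wnt1 (chr15:98789857-98793830), both at 0 throughout.

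Of the 10 Frizzled receptors, 1 was higher in ureter, 3 were lower and 6 were not called, a share of 40% called beside 45% of all genes. Fzd1 and Fzd2, the most abundant, each bind several Wnt ligands. Fzd1 was at 59.0, 47.7, 60.4 and 52.2 TPM in WT kidney 1 and 2 and Ahnak KO kidney 1 and 2, and at 46.0 and 40.0 TPM in the WT and Ahnak KO ureter, with a log2 fold change of 0.03. This value turned negative when library size alone or TPM was used. Fzd2 was at 41.3 to 52.3 TPM in kidney and 35.7 and 27.0 TPM in ureter (log2 fold change -0.23, adjusted p = 0.183). It was called lower with library size alone (adjusted p = 0.026) and log2(TPM + 1) (0.0131). Fzd6, a receptor tied to planar polarity, was the only member called higher, at 21.8, 16.7, 17.9 and 22.3 TPM in kidney and 31.3 and 27.5 TPM in ureter (log2 fold change 0.96, SE 0.155, adjusted p = 0.00361). Fzd3, its close relative, was lower, at 13.8 to 16.8 TPM in kidney and 5.02 and 4.26 TPM in ureter (log2 fold change -1.31, SE 0.106, adjusted p = 0.000207). Fzd4, known for its role in endothelial cells, fell from 30.1 to 39.9 TPM to 16.8 and 17.4 TPM (log2 fold change -0.61, adjusted p = 0.0121). Fzd10 was at 14.3, 9.37, 9.25 and 12 TPM in kidney and 4.56 and 1.81 TPM in ureter (log2 fold change -1.53, adjusted p = 0.0114). Fzd5, Fzd7, Fzd8 and Fzd9 did not pass the main test, at log2 fold changes of -1.17, -0.26, -0.55 and 1.38. Fzd5 depended on the Ahnak KO ureter: without it the log2 fold change was -2.39 (adjusted p = 0.00495), and DESeq2 (0.0313) and log2(TPM + 1) (0.0231) also called Fzd5 lower. DESeq2 called Fzd8 lower as well (0.0438), as did library size alone (0.0147) and log2(TPM + 1) (0.0123). Fzd7 was called lower with library size alone (0.0454) and log2(TPM + 1) (0.0241).

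The co-receptors moved apart by small amounts. Lrp5 was at 17.1 to 21.9 TPM in kidney and 21.6 and 19.0 TPM in ureter, with a log2 fold change of 0.41 (adjusted p = 0.0326) that did not pass when library size alone or TPM was used (0.12 and 0.03). Lrp6 was at 41.3 to 48.9 TPM in kidney and 25.5 and 27.4 TPM in ureter (log2 fold change -0.39, adjusted p = 0.0442), and neither the fits without WT kidney 1, WT kidney 2 or Ahnak KO kidney 2 (adjusted p from 0.0917 to 0.113) nor those without a ureter called it. Lrp5 was likewise not called without WT kidney 2 or Ahnak KO kidney 2 (0.0911 and 0.0746).

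Among the R-spondins, Rspo1 and Rspo3 carried nearly all of the kidney total. Rspo1, an LGR ligand also known from the gonad, was at 56.4, 50.3, 38.4 and 57.9 TPM in WT kidney 1 and 2 and Ahnak KO kidney 1 and 2, and at 0.740 and 0.729 TPM in the WT and Ahnak KO ureter. The log2 fold change was -5.71 (SE 0.295, adjusted p = 3.99e-05), and the ranges lay far apart. The gene spans chr4:124986401-125009102. Gonad markers summed to 1.07 to 1.63 TPM in kidney and 1.33 and 1.61 TPM in ureter. Rspo3 was at 19.5, 13.9, 17.2 and 25.3 TPM in kidney and 5.37 and 4.74 TPM in ureter (log2 fold change -1.51, SE 0.265, adjusted p = 0.00505). Rspo3 made up 81.6% to 81.8% of R-spondin TPM in ureter and 21.6% to 30.9% in kidney. Rspo2 was nearly absent from kidney, with 2 counts in WT kidney 1 and 0 in the other 3, and had 47 and 21 counts in the WT and Ahnak KO ureter. That is a 106-fold higher share of counts in ureter, with a 95% interval of 28.1 to 889 for counting error only, and an adjusted p of 0.00801. Rspo4 had 2 and 8 counts in 2 kidneys and 0 elsewhere and was not tested.

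Their receptors went with them in part. Lgr4, the broadly expressed family member, was at 91.0 and 86.5 TPM in WT kidneys and 117 and 108 TPM in Ahnak KO kidneys, and at 35.2 and 28.3 TPM in the WT and Ahnak KO ureter (log2 fold change -1.27, SE 0.140, adjusted p = 0.00075). It supplied 91.7% to 95.3% of LGR TPM in every library. Lgr5, a stem cell marker and beta-catenin target, was at 7.52 and 6.73 TPM in WT kidneys, 5.46 and 6.17 TPM in Ahnak KO kidneys, and 0.461 and 0.262 TPM in the ureters (log2 fold change -3.79, SE 0.240, adjusted p = 8.17e-05). Lgr6 was at 0.224 to 0.837 TPM in kidney and 1.38 and 1.13 TPM in ureter. Its log2 fold change of 1.59 did not pass the main test (adjusted p = 0.0687) but did with DESeq2 (adjusted p = 0.0419).

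Among the secreted inhibitors, Dkk1 was lower in ureter and Dkk2 and Dkk3 were higher. Dkk1, the best known blocker of Lrp5 and Lrp6, was at 20.3 and 23.6 TPM in WT kidneys and 20.5 and 18.4 TPM in Ahnak KO kidneys (1182 to 1499 counts), and had 0 counts in both ureters. It was at least 272-fold lower in ureter, with the same limit of 3 counts per library. The gene spans chr19:30545876-30549496, and its promoter is the first shown above. Dkk2, which can block or weakly activate the receptor, was at 17.1, 17.6, 17.4 and 14.5 TPM in WT kidney 1 and 2 and Ahnak KO kidney 1 and 2, and 58.5 and 30.9 TPM in the WT and Ahnak KO ureter (log2 fold change 1.75, SE 0.158, adjusted p = 0.000329). Dkk3, a divergent member that does not act on Lrp6 in the same way, was at 21.6, 18.5, 23.3 and 20.2 TPM in kidney and 47.1 and 56.3 TPM in ureter (log2 fold change 1.69, SE 0.121, adjusted p = 0.000126). In kidney Dkk1, Dkk2 and Dkk3 each held 27.4% to 39.5% of the family's TPM, and in ureter Dkk2 and Dkk3 held all of it.

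Of the SFRP genes, Sfrp1 was lower in ureter and Sfrp2 and Sfrp4 were higher. Sfrp1 was at 128, 107, 122 and 106 TPM in WT kidney 1 and 2 and Ahnak KO kidney 1 and 2, and 54.8 and 43.8 TPM in the WT and Ahnak KO ureter (log2 fold change -0.86, SE 0.119, adjusted p = 0.00193). Sfrp2 was at 64.9, 54.3, 60.6 and 59.3 TPM in kidney and 216 and 118 TPM in ureter (log2 fold change 1.82, SE 0.169, adjusted p = 0.000377). It held 33.1% to 35.5% of SFRP TPM in kidney and 65.3% to 76.4% in ureter, so the leading member of the family differed between the organs. Sfrp4, a mesenchymal member of the family, was at 0.547, 0.210, 0.321 and 0.946 TPM in kidney and 11.7 and 18.4 TPM in ureter (log2 fold change 5.25, SE 0.496, adjusted p = 0.000397). Sfrp5 had 15, 18, 0 and 18 counts in kidney and 0 and 16 in ureter, with no direction that held across the alternatives.

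The members named above as target genes were lower in ureter. Axin2, a feedback inhibitor of the pathway and its most used reporter gene, was at 16.5 and 13.9 TPM in WT kidneys and 13.9 and 14.7 TPM in Ahnak KO kidneys. It was at 2.67 TPM in the WT ureter and 1.62 TPM in the Ahnak KO ureter (log2 fold change -2.42, SE 0.195, adjusted p = 0.000201). Axin1, which builds the same complex but is not a target gene, was at 33.5 to 44.2 TPM in kidney and 25.9 and 34.5 TPM in ureter. Its log2 fold change was 0.04 (adjusted p = 0.877), and it turned negative with library size alone or TPM. Lef1 was at 13.4, 15.8, 18 and 14.5 TPM in WT kidney 1 and 2 and Ahnak KO kidney 1 and 2, and at 1.43 and 1.48 TPM in the WT and Ahnak KO ureter (log2 fold change -2.92, SE 0.182, adjusted p = 7.85e-05). Tcf7 was at 23.2, 18.7, 20.1 and 19.5 TPM in kidney and 6.07 and 7.22 TPM in ureter (log2 fold change -1.23, SE 0.189, adjusted p = 0.00296). Neither gene overlapped between the organs. Together with Lgr5 and Dkk1, the 5 genes named above as targets were all lower in ureter, beside 23.7% of all genes tested. Lef1, Tcf7, Axin2 and Lgr5 were the targets set in the plan, and Dkk1 was added to them. They are not a full list of target genes, and some other targets, given below, rose. Exons of 9 of the 50 genes, Axin2 and Lef1 among them, overlap an annotated gene on the opposite strand (209 and 1208 bases for these). Whether counting used the strand is not given in the sources used here.

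A wider list of 74 further WNT pathway genes was read in the same fit. In ureter 14 rose (18.9%), 26 fell (35.1%) and 34 were not called, beside 21.4% and 23.7% of all genes. With library size alone 8 rose and 37 fell, so the balance of directions depends on the scaling. Of the 18 extracellular modulators 10 were lower (55.6%) and 4 higher (22.2%). Draxin, a secreted WNT inhibitor, and the target gene Sp5 were at 0 in both ureters and so at least 46.6-fold and 30.8-fold lower. Sostdc1, an Lrp6 ligand, was at 109 to 129 TPM in kidney and 1.33 and 0.529 TPM in ureter (log2 fold change -6.64). Frzb was at 17.6 to 24.9 TPM in kidney and 2.04 and 0.563 TPM in ureter (log2 fold change -3.77). The largest rises were in Dkkl1, a Dickkopf-like protein (log2 fold change 4.09, and 3.54 without Ahnak KO kidney 1, where it was at 0), Cd44, a cell adhesion receptor and target gene (3.38), and Cthrc1, a secreted WNT cofactor (1.98). Of the 9 target genes in that list 3 fell, Sp5 and Ccnd1 among them, and 2 rose, Cd44 and Bambi, so targets as a class did not move one way. Of the 20 cytoplasmic components 4 fell and 4 rose, 20% each, near the shares over all genes. Ctnnb1, beta-catenin itself, was at 600 to 693 TPM in kidney and at 576 TPM in each ureter (log2 fold change 0.21, adjusted p = 0.104).

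The genotype comparison in kidney set 2 Ahnak KO libraries against 2 WT libraries, and no WNT gene was called. On simulated data with the same dispersion of 0.05 for every gene, this test recovered 20% of genes with a log2 fold change of 1. At a log2 fold change of 2 it recovered 99%. Only genes with a mean of at least 50 counts were changed there. The recovery of lower genes, such as Fzd9 and Sfrp5, was not tested. The common dispersion of these kidneys was 0.054, so a 2-fold change could be missed. Of the 50 genes, 41 were tested. edgeR called 0, beside 2 of all 16481 genes (0.0121%, both lower), and DESeq2 also called 0 of the 41. At an unadjusted p under 0.05 there was 1, Lgr4, beside 1.38% of all genes. The median log2 fold change was -0.02 for WNT genes and below 0.01 in size for all genes, and 37 of the 41 lay within 0.5 of 0. Of the 41, 5 did not overlap between genotypes (Lgr4, Fzd9 and Wnt9a higher, Lgr5 and Wnt8b lower), beside 26.3% of all genes (12.8% higher and 13.5% lower).

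Lgr4 was higher in both Ahnak KO kidneys, at 117 and 108 TPM, than in the WT kidneys, at 91.0 and 86.5 TPM. The log2 fold change was 0.37 (SE 0.0989, unadjusted p = 0.00897), and it did not pass adjustment over all genes (adjusted p = 1, and from 0.367 to 1 over the alternatives). Without Ahnak KO kidney 1 it was 0.34. Several genes lower in ureter differed little between the kidney genotypes. Log2 fold changes of Ahnak KO minus WT kidney were -0.19 for Wnt9b, 0.06 for Wnt4, -0.07 for Wnt11, -0.11 for Rspo1, -0.14 for Dkk1, -0.05 for Axin2, 0.10 for Lef1 and -0.06 for Tcf7, with unadjusted p of 0.383 or more. Others lower in ureter lay further from 0 in Ahnak KO minus WT kidney. Rspo3 was at 0.39, Lgr5 at -0.26 and Wnt8b at -0.37, with unadjusted p of 0.189, 0.199 and 0.387 in edgeR. The largest values belonged to low genes with wide errors, such as Fzd9 at 1.43 (SE 0.829, with 24, 8, 30 and 46 counts in WT kidney 1 and 2 and Ahnak KO kidney 1 and 2). Wnt7a had 20 counts in WT kidney 1 and 0 in the other 3 kidneys. Of the 74 further pathway genes none was called and 1, Celsr3, had an unadjusted p under 0.05, at under 0.1 TPM in every kidney.

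In ureter, with 1 library per genotype, values are a ratio of libraries with no replicate check. A contrast in edgeR that takes its spread from kidney called 0 of 44 WNT genes, beside 0.57% of all 17557 genes, and 9 had an unadjusted p under 0.05 (20.5%), beside 18.5%. Of the 50 genes, 40 reached 10 counts in the higher library. In Ahnak KO ureter 20 were higher and 20 lower, with a median log2 ratio near 0 (-0.003, beside -0.02 for all genes). On log2(CPM + 0.5), a 2-fold difference was passed by 2: Fzd10 was lower and Fzd5 higher, beside 5.75% of all 16117 genes lower and 4.5% higher. With a floor of 3 counts in place of the 0.5, Wnt9b (lower) and Sfrp5 (higher), each at 0 in 1 ureter, passed it too, so 2 were lower and 2 higher, beside 10.5% and 7.53% of all genes. Fzd5, a receptor known from epithelia, had 176 counts in WT and 402 in Ahnak KO ureter, 0.859 and 2.98 TPM, a 3.53-fold ratio (log2 ratio 1.82). In TPM the Ahnak KO ureter lay just under the 3.66 to 6.08 TPM of the kidneys. In TMM-scaled CPM it was at 13.5, within the 12.2 to 19.6 of the kidneys, so the order depends on the unit. Exons of Fzd5 share 1233 bases with an annotated gene on the opposite strand. Fzd10 had 402 counts in WT and 106 in Ahnak KO ureter, a log2 ratio of -1.02, which is just past the threshold. Of the genes with at least 50 counts, just inside it lay Wnt2b, with 562 and 173 counts and a log2 ratio of -0.85, and, on the higher side, Sfrp4, with 609 and 630 counts and a log2 ratio of 0.81.

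The abundant ureter genes differed by less. Sfrp2 had a log2 ratio of -0.68 (216 and 118 TPM), Dkk2 -0.72 (58.5 and 30.9 TPM) and Wnt11 -0.63 (10.1 and 5.20 TPM). Dkk3 was at 0.45, Wnt4 at 0.55, Wnt7b at 0.32 and Axin1 at 0.60. Axin2 was at -0.47, from 336 and 135 counts, whereas Lef1 was at 0.21 and Tcf7 at 0.42, so the target genes did not go one way. Wnt9b had 16 counts in WT and 0 in Ahnak KO ureter, a 3.08-fold lower value with the 0 set to 3 counts. Set the same way, Wnt16 (0 and 6 counts) and Sfrp5 (0 and 16 counts) were 3.47-fold and 9.24-fold higher. These values leave out the counting error of the counts above 0. In the further list 6 of 71 genes were over 2-fold lower in Ahnak KO ureter and 0 higher on log2(CPM + 0.5). Over all genes 5.75% were lower and 4.5% higher by the same rule. Of the 6, Frzb, Tle2, Nkd2, Rnf43 and Nkd1 had log2 ratios of -1.28, -1.23, -1.12, -1.11 and -1.03. Sost, with 54 and 0 counts, was 10.4-fold lower with the 0 set to 3 counts. With the floor of 3 counts there were 10 lower (14.1%) and 0 higher, beside 10.5% and 7.53% of all genes. The added ones were Sostdc1 (69 and 19 counts) and Wif1, Celsr3 and Kremen2, which had 18 to 20 counts in WT and 0 in Ahnak KO ureter. The 2 ureter libraries also differed in summed marker genes, those of the ureter included. Striated muscle genes were at 542 and 203 TPM, smooth muscle genes at 5825 and 4440 TPM, blood genes at 2284 and 1051 TPM, and urothelial genes at 8739 and 8100 TPM in WT and Ahnak KO. The part of these and of Rn45s in the ratios was not tested.

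**Figure D4:**
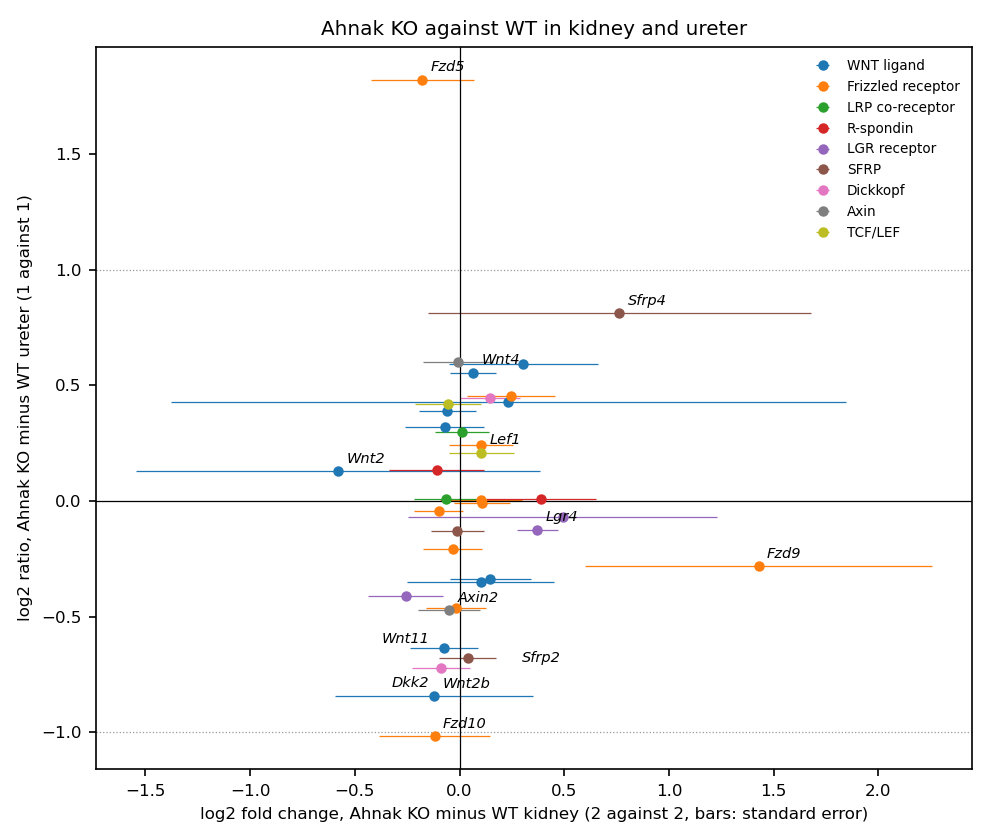
Log2 difference of Ahnak KO from WT for the 36 WNT genes compared in both organs and above 0 in both ureters, with kidney on the x axis (edgeR, 2 against 2 libraries, bars are standard errors) and ureter on the y axis (ratio of 1 library to 1, no error). Dotted lines mark a 2-fold ratio in ureter. Fzd5 at 1.82 and Fzd10 at -1.02 are past them, and the kidney values of both are near 0.

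Whether the genotype difference in ureter was unlike that in kidney was tested with an interaction term over all 6 libraries. All 2 residual degrees of freedom come from kidney, so the ureter libraries were assumed to vary like kidneys. Of 44 WNT genes tested edgeR called 0, beside 0.108% of all 17557 genes (0.0513% more positive and 0.057% more negative in ureter). At an unadjusted p under 0.05 there were 6, beside 12.4% of all genes. Fzd5 and Wnt16 had an effect more positive in ureter, beside 4.92% of all genes, and Dkk2, Sfrp2, Lgr4 and Wnt9b one more negative, beside 7.46%. Fzd5 had the smallest p. Its kidney values were 5.34 and 5.98 TPM in WT and 6.08 and 3.66 TPM in Ahnak KO, a log2 fold change of -0.18 (SE 0.246), and the difference between the organs was 2.16 (adjusted p = 0.179). DESeq2 called Fzd5 (adjusted p = 0.00694), but DESeq2 also called 204 of all genes more positive and 288 more negative, beside 9 and 10 in edgeR. In edgeR without Ahnak KO kidney 1, which leaves 1 library in that group, the Fzd5 difference was 2.54. For Sfrp2 and Dkk2 the differences were -0.72 (adjusted p = 0.287) and -0.64 (adjusted p = 0.32). For Lgr4, where kidney and ureter pointed opposite ways, the difference was -0.50 (adjusted p = 0.339). Wnt9b and Wnt16 each rest on a library at 0 in ureter, and their fitted values are not bounds.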

How the data were processed

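Poly(A) RNA of 4 kidney and 2 ureter libraries was sequenced in bulk (TruSeq Stranded mRNA kit, Illumina). The deposited table gives an estimated count, FPKM and TPM per gene and library. The authors' counts are expected counts written as whole numbers and not normalized, and the deposited TPM is normalized for gene length and depth. The submitters' processing notes name Trimmomatic 0.38, HISAT2 2.1.0, StringTie 1.3.4b and mm10, while the methods name Cutadapt, STAR, Cufflinks and GRCm39, so the program behind the values is uncertain. FPKM was not used. Ureter samples carry kidney in their titles, and were grouped by their source label, which the table's column names share.

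Counts were tested in R 4.3.3 by the quasi-likelihood test of edgeR 4.0.16, after filterByExpr and TMM scaling, with p-values adjusted by Benjamini-Hochberg over all genes tested. The tests were planned for read counts and run on the estimated ones. Standard errors are the absolute log2 fold change over the square root of F, an approximation. Ureter libraries were compared by log2 ratios of CPM + 0.5. Alternatives used DESeq2 1.42.0, limma 3.58.1 on TPM, other filters and scalings, a replicate block and left-out libraries. The tests were checked on simulated data. Gene positions are from GENCODE on GRCm38 and promoters from RefSeq, matched by gene number for all 50 genes. Values in every library are given for the 6 genes highest in each organ, up to 20 genes called between organs by size, genes at unadjusted p under 0.05 between kidneys, genes over 2-fold apart between ureters with at least 50 counts, genes at 0 throughout, and Lef1, Tcf7, Axin2 and Lgr5. The gene rule and all lists were chosen with earlier results of these data known. Intervals cover counting error only, and limits for a 0 cover the error of the 0 alone. The values of 1 gene of the wider pathway list are not reported here.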

Additional observations from a re-analysis of the deposited data

How the results depend on the processing

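Between ureter and kidney, the count of WNT genes higher in ureter ran from 10 to 15 and the count lower from 14 to 23 over all alternatives, beside 14 and 17. Genes that were not called had no stable direction in 4 cases. With library size alone, log2(TPM + 1) and log2(TPM + 0.1), the log2 fold change was -0.26, -0.34 and -0.35 for Fzd1, -0.13, -0.21 and -0.22 for Wnt5a, and -0.26, -0.34 and -0.35 for Axin1, against positive values with TMM. In WT libraries only, Wnt5a was at -0.067 and Axin1 at -0.28. In Ahnak KO libraries only, Fzd1 was at -0.030 and Sfrp5 at 1.81, and Sfrp5 was at 0.35 without a genotype term. Leaving out 1 library at a time gave -0.038 to 0.094 for Fzd1, -6.95 to 1.81 for Sfrp5, -0.067 to 0.38 for Wnt5a and -0.28 to 0.33 for Axin1. The cause was not tested. All genes gave 3603 higher and 3992 lower calls with TMM, 2371 and 6108 with library size alone (47.4% and 28% higher), 2308 and 7379 with log2(TPM + 1), and 2628 lower in WT libraries only. Other WNT pathway genes gave 14 higher and 26 lower, and 6 and 40 with log2(TPM + 1).

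Between kidneys, no WNT gene was called under any alternative. Same-numbered kidneys did not deviate together (correlation of deviations -0.193 over 16481 genes, from 2 pairs), and the labels give no shared origin for a number. The replicate block gave 0 WNT genes and 0 of all genes, and the crossed replicate block, added after the data were seen, gave 0 WNT genes and 1 gene lower. Over all genes DESeq2 called 25 higher and 21 lower, and leaving out Ahnak KO kidney 2 called 24 and 63. For the difference between organs, 1 WNT gene, Fzd5, was more positive in ureter with DESeq2. Leaving out 1 kidney at a time, its difference ran from 1.87 to 2.54. Over all genes DESeq2 gave 204 more positive and 288 more negative, beside 9 and 10. Between ureters, 2 WNT genes were over 2-fold lower with library size alone (Wnt2b added, at -1.03) and 2 lower and 2 higher with a pseudocount of 0.1 (Wnt9b and Sfrp5 added, at -1.89 and 2.51). A floor of 3 counts, added after the data were seen, also gave 2 lower and 2 higher. The edgeR contrast, with the spread taken from kidney, called 0 in each direction. The Fzd5 ratio was 1.36 on TPM + 0.5.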
